A study of Mus musculus with 16 samples.

Results

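The mixed hippocampal cultures of this study held neurons and glia, and 30 genes known as markers of astrocytes were followed in them, out of 55385 genes in the deposited tables. The 30 genes were listed by name from general knowledge of astrocytes and matched to the Ensembl identifiers of the tables, each to 1 identifier. The rule that lists them uses no measured value, but they were chosen with earlier results of these data known. For this reason no test was run over the list as a set. Cultures were prepared from hippocampi of newborn C57Bl/6N mice and infected with recombinant adeno-associated virus that carried either a control hairpin (Control-shRNA) or a hairpin against Dnmt3a1, the long isoform of a DNA methyltransferase (Dnmt3a1-shRNA). The hairpins stood under a U6 promoter, which is not particular to a cell type, with GFP under a chicken β-actin promoter, and the study names the hairpin of these cultures Dnmt3a1-shRNA2, which the labels do not number. It chose the viral serotype, rAAV1/2, for a preference for neurons, and which cells of these cultures carried the hairpin was not analysed here. Each shRNA was studied in baseline and after 4 h of bicuculline, which blocks GABA-A receptors and induces bursts of action potentials. The 4 groups held 4 libraries each, numbered 1 to 4, and all 16 cultures carried virus, so that an uninfected culture was not compared here. The libraries were made from total RNA of the whole culture. In such bulk RNA, more astrocytes and more RNA per astrocyte cannot be told apart.

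Astrocytes surround synapses and blood vessels, take up glutamate and potassium that neurons release, convert glutamate to glutamine, and supply neurons with lipids. They are joined to each other by gap junctions, and they respond to injury by raising intermediate filament proteins such as Gfap and Vim. Several of the genes are not particular to astrocytes: Vim and Fabp7 are also used by neural progenitors, S100b by the oligodendrocyte lineage, Mt1 and Mt2 by many cell types, and Slc1a2, at a low level, by hippocampal neurons.

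The totals of the libraries lay between 28912697 and 29586355 estimated counts. Dnmt3a, the targeted gene, was at 293 to 324 in Control-shRNA baseline and at 39.4 to 48.05 in Dnmt3a1-shRNA baseline, in CPM, the counts scaled to library size and by the trimmed mean of M-values (TMM). It was at 311 to 338 and 43.8 to 47.8 CPM in the corresponding bicuculline groups. In each condition the groups did not overlap (exact two-sided permutation test on log2 CPM, p = 0.0286, the smallest that 4 against 4 allows). As a check of the stimulation in Control-shRNA, the activity-regulated gene Fos was at 7.54 to 14.5 CPM in baseline and at 726 to 1059 CPM with bicuculline, Arc at 12.2 to 20.05 and 589.7 to 1079.8 CPM, and Npas4 at 6.12 to 15.7 and 1469.9 to 2002 CPM. Differences were tested with edgeR (quasi-likelihood F test), with Benjamini-Hochberg adjustment over the 17222 genes that passed the filter on low counts, and calls required both an adjusted p under 0.05 and a log2 fold change beyond 0.5 in size. The study describes the libraries of a group as independent preparations, and the p-values measure the spread between these libraries alone.

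Astrocyte RNA was present in every library. On the TPM scale, which is per transcript length and so allows genes to be set side by side, Apoe, the main lipid carrier that astrocytes secrete, was the highest of the 30 genes at a mean of 945 TPM over the 16 libraries, with a range of 607 to 1304. It was followed by the metal-binding protein gene Mt1 at 459 TPM (231 to 673), by Atp1b2, the beta-2 subunit of the sodium pump, at 242 TPM (214 to 279), by the intermediate filament gene Vim at 235 TPM (115 to 317), by the fatty acid binding protein gene Fabp7 at 215 TPM (144 to 286) and by Glul, the glutamine synthetase, at 161 TPM (103 to 229). In the order of the means, the range of each of these genes overlapped that of the next, and the ranges of Atp1b2, Vim, Fabp7 and Glul all overlapped one another. All genes were measured in the same libraries, so overlapping ranges do not show whether neighbours differ within libraries, which was not tested. Further down, ranges of neighbours also overlapped, except that every library of Slc4a4 (from 7.18 TPM) lay above every library of Ntsr2 (up to 5.83 TPM). These 6 genes made up 68.6% of the summed level of the 30.

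Clu and Ttyh1 lay at means of 157 and 154 TPM, Mt2 at 122 TPM and Ndrg2 at 96.5 TPM. The glutamate transporters Slc1a3 and Slc1a2 lay at 91.1 and 69.3 TPM, and Gfap, the filament protein most often used to stain astrocytes, at 81.1 TPM. Aldoc, Mlc1, Acsbg1, Slc25a18, Aldh1l1, Gja1, Aqp4, Fgfr3, Sox9, Hepacam and Slc4a4 followed, from 42.5 TPM for Aldoc to 11.9 TPM for Slc4a4. Ntsr2 and Gpr37l1, which encode receptors, had means of 4.12 and 3.37 TPM, and S100b, Cldn10 and Slc7a10 had means of 1.59, 1.23 and 0.981 TPM. The low end thus held S100b, whose protein is a widely used astrocyte marker, together with the transporter gene Slc7a10.

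Gjb6, which encodes the gap junction protein connexin 30, was the exception. It had 0 to 10 estimated counts, was at 0 in 10 of the 16 libraries, and did not pass the filter on low counts. A count of 0 allows up to 3 counts, or 0.104 CPM, and this covers counting error only. The other 29 genes were tested, and each had at least 5 estimated counts in every library. Estimates can be divided between genes that share sequence: of the 31-base words of the Mt2 transcripts, 58.1% were also found in another gene, mainly Gm45774, and 20.4% of those of Glul were also found elsewhere, mainly in the pseudogene Glns-ps1. The shares were 14.9% for Fgfr3, 14.9% for Slc7a10 and 11.4% for Aldh1l1, and 6.86% or less for the others. The values of these 5 genes are therefore uncertain.

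In TPM, the summed level of the 30 genes differed more between libraries of the same group than between group means. In Control-shRNA baseline it was 2487, 3302, 3610.3 and 2556 TPM in numbers 1 to 4. It was 2511, 3956, 3752 and 3142 TPM with bicuculline. In Dnmt3a1-shRNA it was 2358, 3611, 4102 and 2982 TPM in baseline and 2736, 3759, 4233 and 3559.8 TPM with bicuculline. On this scale number 1 was the lowest library in all 4 groups, numbers 2 and 3 were the highest pair in all 4, and all 4 groups overlapped. In CPM numbers 2 and 3 were again the highest pair in all 4 groups, but number 4 of Control-shRNA baseline, at 2038 CPM, lay below number 1 at 2155 CPM.

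**Figure D1:**
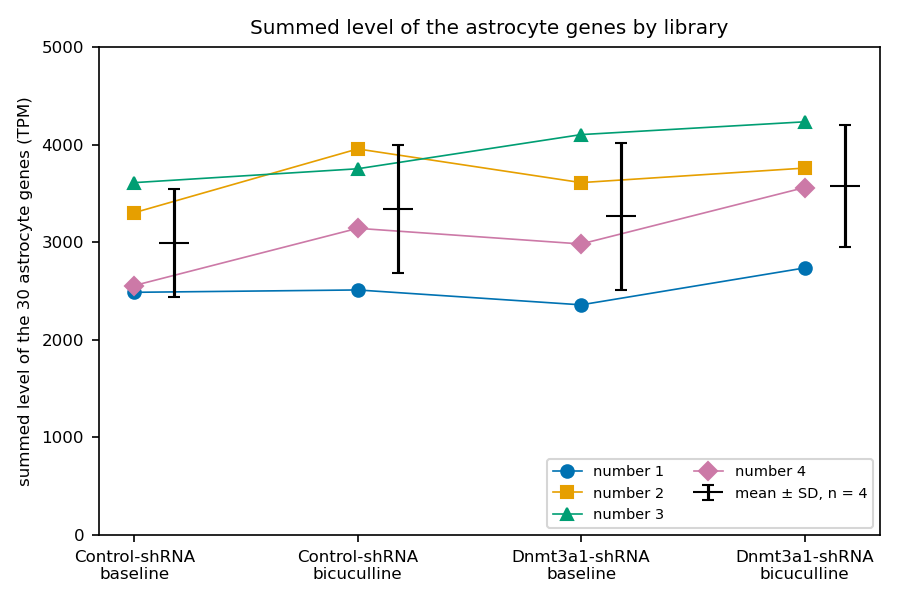
Summed level of the 30 astrocyte genes in TPM (vertical axis) in each library of the 4 groups (horizontal axis). Lines join libraries with the same replicate number, and black bars give the group mean ± SD (n = 4). Number 1 lies at 2358 to 2736 TPM and numbers 2 and 3 at 3302 to 4233 TPM.

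The means were 2989 ± 555 and 3340 ± 652 TPM in Control-shRNA baseline and bicuculline, and 3263 ± 758 and 3572 ± 625 TPM in Dnmt3a1-shRNA baseline and bicuculline (SD, n = 4). The bicuculline groups and the knockdown groups thus stood 1.09 to 1.2 times as high as Control-shRNA baseline, and these ratios were not tested. Summed in CPM, the ratios were 1.22, 1.16 and 1.41 for Control-shRNA with bicuculline, Dnmt3a1-shRNA in baseline and Dnmt3a1-shRNA with bicuculline. In CPM, Control-shRNA baseline, with 2038 to 2632 CPM, did not overlap Dnmt3a1-shRNA with bicuculline, with 2858 to 3594 CPM, and these groups differ in both the shRNA and the treatment.

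The same 2 numbers were high for most of the genes taken singly, a pattern that was noticed after the values were seen. Numbers 2 and 3 both exceeded numbers 1 and 4 in all 4 groups for 16 of the 29 tested genes, against 5.48% of all genes tested. Number 1 was the lowest library in all 4 groups for 7 of the 29, against 3.58% of all genes tested. Averaged over the 4 groups, number 3 exceeded number 1 by a factor with a median of 1.48 over the 29 genes, beside 0.982 over all genes tested. The factor was 2.15 for Slc25a18, a mitochondrial glutamate carrier, 1.97 for Aqp4, the water channel of astrocyte endfeet, 1.96 for Gja1, which encodes connexin 43, and 1.94 for Aldh1l1, a folate enzyme. It was 1.76 for Gfap and 3.38 for the low gene Cldn10.

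A smaller number of the genes did not follow this order. The factor was 0.978 for Atp1b2, 1.04 for Slc1a2, 1.05 for Ntsr2, 1.09 for Ttyh1, 1.09 for Fabp7 and 1.14 for Vim. Of these, Slc1a2 was highest in number 1 or 3 in every group, at 474, 375, 463 and 447 CPM in Control-shRNA baseline.

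Genes of other cell types were set beside the astrocyte genes. For 17 neuronal genes the median factor of number 3 over number 1 was 0.909, and their summed level ranged from 8265 to 9262 TPM over the 16 libraries. For 34 tested further astrocyte genes the median was 1.405. The 8 tested genes of the oligodendrocyte lineage had a median of 1.53 and a summed level of 89.7 to 201 TPM, with the defining gene Sox10 at 0 or 1 count. The 11 tested genes of fibroblasts and vessels had a median of 1.4, with sums of 42.2 to 101 TPM, and the 9 tested microglia genes a median of 1.255, with sums of 13.3 to 28.7 TPM. Mitochondrial transcripts took 4.75 to 6.6% of the counts in the libraries numbered 1 and 2.73 to 3.58% in those numbered 3. The share was 3.7 to 5.55% in those numbered 2 and 3.87 to 5.04% in those numbered 4, which overlap. The part of these values in the differences between libraries was not tested.

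**Figure D2:**
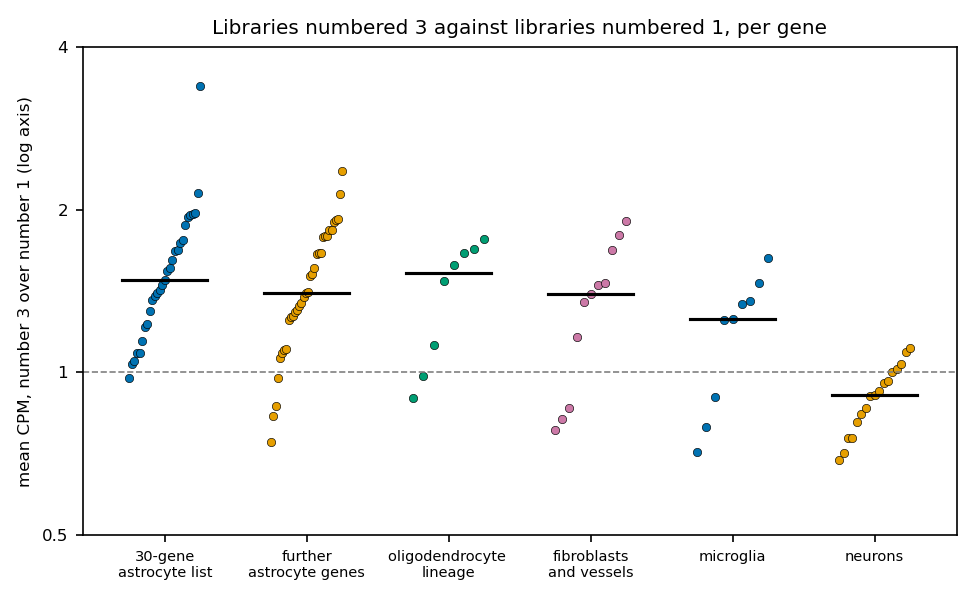
Mean CPM over the 4 groups in the libraries numbered 3 divided by that in the libraries numbered 1 (vertical log axis), with 1 point per tested gene and a black bar at the median of each gene list (horizontal axis). The median is 1.48 for the astrocyte genes and 0.909 for the neuronal genes.

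The first comparison asked how the cultures responded to 4 h of bicuculline. Among the astrocyte genes, Sox9, Vim and Mt1 rose in both shRNAs and no gene was called lower. In Control-shRNA, Sox9, a transcription factor of astrocytes and of their progenitors, rose by 2.13-fold, Vim by 2.12-fold and Mt1 by 1.52-fold, and in Dnmt3a1-shRNA they rose by 2.12-fold, 1.71-fold and 1.47-fold. Of the 29 tested genes, 3 were called higher in Control-shRNA, where 10.8% of all genes tested were called higher, and 0 were called lower, where 11.1% were. In Dnmt3a1-shRNA the same 3 genes were called higher (12.6% of all genes tested) and 0 lower (13.2%). At an unadjusted p under 0.05, edgeR gave 6 of the 29 higher and 0 lower in Control-shRNA, beside 23% and 25.1% of all genes tested, and 8 higher and 0 lower in Dnmt3a1-shRNA, beside 23.7% and 28.1%, and voom with limma and DESeq2 also called 0 lower in both.

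Among the structural proteins, Vim (GRCm38, chromosome 2, 13573927 to 13582826) was at 87.1, 114, 138 and 88.4 CPM in the 4 libraries of Control-shRNA baseline and at 233, 232, 216 and 227 CPM with bicuculline. In Dnmt3a1-shRNA it was at 114, 166, 173 and 133 CPM in baseline and at 235, 263, 236 and 264 CPM with bicuculline. Every bicuculline library lay above every baseline library of its shRNA, and the spread between libraries was narrower with bicuculline. The log2 fold change was 1.09 ± 0.14 in Control-shRNA (adjusted p = 5.47e-06, edgeR) and 0.77 ± 0.14 in Dnmt3a1-shRNA (adjusted p = 1.48e-04), here and below ± SE. Gfap, the other filament gene, had log2 fold changes of 0.31 ± 0.25 and 0.27 ± 0.25 and was not called (edgeR adjusted p = 0.348 and 0.402).

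Sox9 (GRCm38, chromosome 11, 112782224 to 112787760) stood at 15.8, 18.8, 20.3 and 12.8 CPM in Control-shRNA baseline and at 31.6, 45.8, 37.5 and 29.4 CPM with bicuculline. In Dnmt3a1-shRNA baseline it stood at 16.1, 26.2, 27.3 and 21.1 CPM, and with bicuculline at 43.2, 54.4, 53.6 and 40.8 CPM. The groups did not overlap in either shRNA. The log2 fold changes were 1.09 ± 0.18 (edgeR adjusted p = 8.07e-05) and 1.08 ± 0.17 (adjusted p = 5.98e-05). Ndrg2 and S100b, which stand beside Sox9 in the list as a stress-related protein and a calcium-binding protein, were not called.

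The metallothioneins Mt1 and Mt2 bind zinc and copper, and their genes are neighbours on chromosome 8, with starts 6471 bases apart. The bicuculline calls above include Mt1 and not its neighbour Mt2, but a difference between these genes was not tested. The 250 bases before each start are shown (RefSeq, GRCm38.p6, plus strand), with the core of the metal response element, TGCNCNC on either strand, in capitals. The Mt1 stretch is chr8:94178839-94179088 and the Mt2 stretch is chr8:94172368-94172617.
Mt1: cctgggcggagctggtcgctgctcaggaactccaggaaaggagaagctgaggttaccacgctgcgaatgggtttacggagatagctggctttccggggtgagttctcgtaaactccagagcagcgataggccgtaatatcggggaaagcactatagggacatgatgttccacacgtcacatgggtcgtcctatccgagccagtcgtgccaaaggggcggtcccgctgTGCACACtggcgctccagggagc
Mt2: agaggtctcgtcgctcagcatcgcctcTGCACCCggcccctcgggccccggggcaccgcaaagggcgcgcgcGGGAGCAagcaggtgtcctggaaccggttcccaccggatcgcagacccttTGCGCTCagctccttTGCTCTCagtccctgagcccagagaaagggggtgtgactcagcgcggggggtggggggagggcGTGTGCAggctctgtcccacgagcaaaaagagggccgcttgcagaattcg
The Mt2 stretch held 5 matches to the core and the Mt1 stretch 1, and 0.344% of 32851 promoter stretches of this length held at least 5, while 44.4% held at least 1. Such a match is a description of the letters, and the counts hold for these stretches alone. They depend on the start used. The gene coordinates used for the other genes (GRCm38) start Mt1 at 94179082, inside its stretch, and Mt2 at 94172664, past the end of its stretch. Bases after the stretches were not searched, so the counts do not compare the whole promoters of Mt1 and Mt2. Of the 30 genes, 26 had an entry in this promoter table.

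Mt1 was at 70.3, 83.3, 70.6 and 70.8 CPM in Control-shRNA baseline and at 88.7, 134, 116 and 109 CPM with bicuculline. In Dnmt3a1-shRNA it was at 46.5, 90.5, 72.97 and 63.3 CPM in baseline and at 69.9, 107, 116 and 109 CPM with bicuculline. The groups were apart in Control-shRNA and overlapped in Dnmt3a1-shRNA, where number 1 was the lowest library of both groups, and within each number the bicuculline library was the higher in both shRNAs. The log2 fold change was 0.6 ± 0.18 (edgeR adjusted p = 0.0105) and 0.56 ± 0.18 (adjusted p = 0.0153). Mt2 had log2 fold changes of 0.49 ± 0.3 and 0.31 ± 0.3, and was not called (edgeR adjusted p = 0.215 and 0.442). Its bicuculline library was also the higher within each number in both shRNAs. The Mt1 calls were lost when libraries were scaled by their totals alone, with log2 fold changes of 0.45 and 0.41, and on the TPM scale, with 0.39 and 0.37. The call in Dnmt3a1-shRNA was also lost without number 1 of Dnmt3a1-shRNA baseline or number 3 of Dnmt3a1-shRNA bicuculline.

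**Figure D3:**
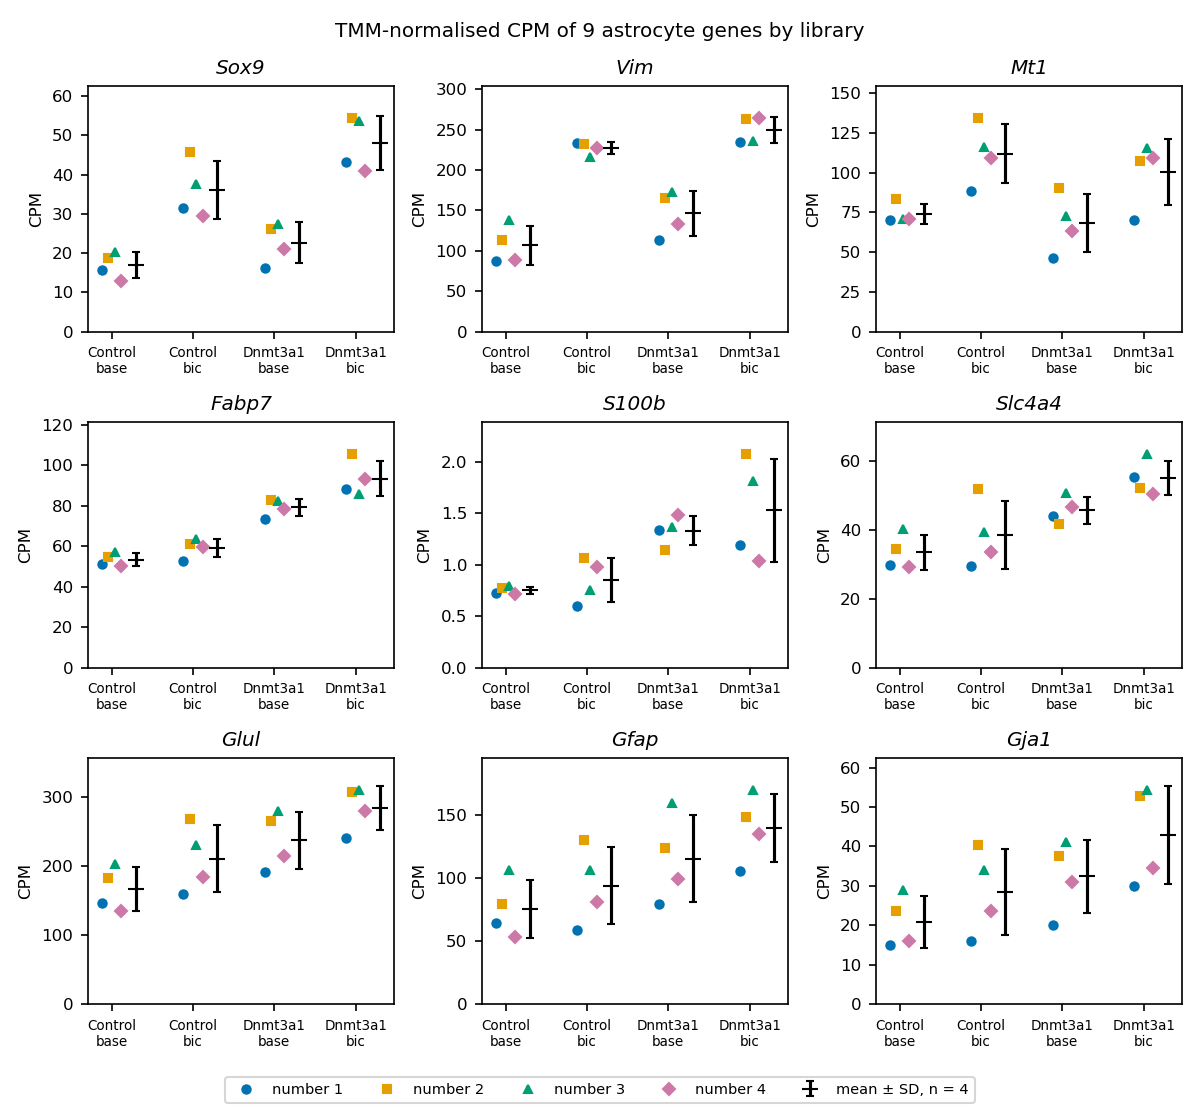
CPM (vertical axes, starting at 0) of the 7 called genes and of Gfap and Gja1 in each library, with 1 symbol per replicate number and the group mean ± SD in black (n = 4). The horizontal axes give the shRNA (Control or Dnmt3a1) and the condition (base for baseline, bic for bicuculline). Sox9 and Vim lie apart between baseline and bicuculline, and Fabp7 lies apart between the shRNAs.

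Several genes of ion and lipid handling moved by less than the fold threshold while their adjusted p was under 0.05. Ttyh1, which encodes a chloride channel-related membrane protein, was at 119.6, 112, 123 and 121 CPM in Control-shRNA baseline and at 154, 155, 161 and 137 CPM with bicuculline, with no overlap. Its log2 fold change was 0.35 ± 0.07 (edgeR adjusted p = 4.04e-04), and it was 0.36 ± 0.07 in Dnmt3a1-shRNA, also with no overlap (adjusted p = 2.41e-04). Atp1b2 was at 317, 317, 281 and 313 CPM in Control-shRNA baseline and at 348, 391, 361 and 324 CPM with bicuculline. In Dnmt3a1-shRNA it was at 339, 368, 317 and 368 CPM in baseline and at 405, 385, 418 and 412 CPM with bicuculline. These groups did not overlap in either shRNA, and the log2 fold changes were 0.21 ± 0.07 (edgeR adjusted p = 0.0155) and 0.22 ± 0.07 (adjusted p = 0.0118). Over the alternative fits the value in Control-shRNA ranged from 0.000674 to 0.24. Clu, which encodes the secreted chaperone clusterin, had values of 0.46 ± 0.15 (edgeR adjusted p = 0.0169) and 0.39 ± 0.15 (adjusted p = 0.0378).

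In Dnmt3a1-shRNA, Fabp7 and the neurotensin receptor gene Ntsr2 also had an adjusted p under 0.05. Fabp7 had a log2 fold change of 0.24 ± 0.07 (edgeR adjusted p = 0.0134) and Ntsr2 one of 0.49 ± 0.19 (adjusted p = 0.042), just under the fold threshold and called under 7 of 26 alternatives, voom with limma and DESeq2 among them.

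The other genes were not called. Their log2 fold changes were positive for nearly all of them, so that 27 of the 29 tested genes lay above 0 in each shRNA, beside 50.6% of all genes tested in Control-shRNA and 49.2% in Dnmt3a1-shRNA. The median over the 29 was 0.3 in Control-shRNA and 0.27 in Dnmt3a1-shRNA, beside medians of 0.01 and -0.01 over all genes tested. With libraries scaled by their totals alone 24 and 25 of the genes lay above 0, with medians of 0.14 and 0.12, and on the log2(TPM + 1) scale 21 and 24 did, with medians of 0.09 and 0.10, the values of S100b, Aldoc, Ndrg2, Fabp7, Apoe, Gpr37l1, Cldn10 and Slc7a10 being those that lay below 0 in 1 of the shRNAs or both under such a scaling. The glutamate transporter gene Slc1a2 was below 0 in both, at -0.12 ± 0.1 and -0.05 ± 0.1, and Slc7a10 was the lowest in Dnmt3a1-shRNA, at -0.63 ± 0.37, with 5 to 16.4 estimated counts over all libraries. Within the replicate numbers, the bicuculline library was the higher in all 4 pairs for 17 of the 29 genes in Control-shRNA, against 28.7% of all genes tested.

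**Figure D4:**
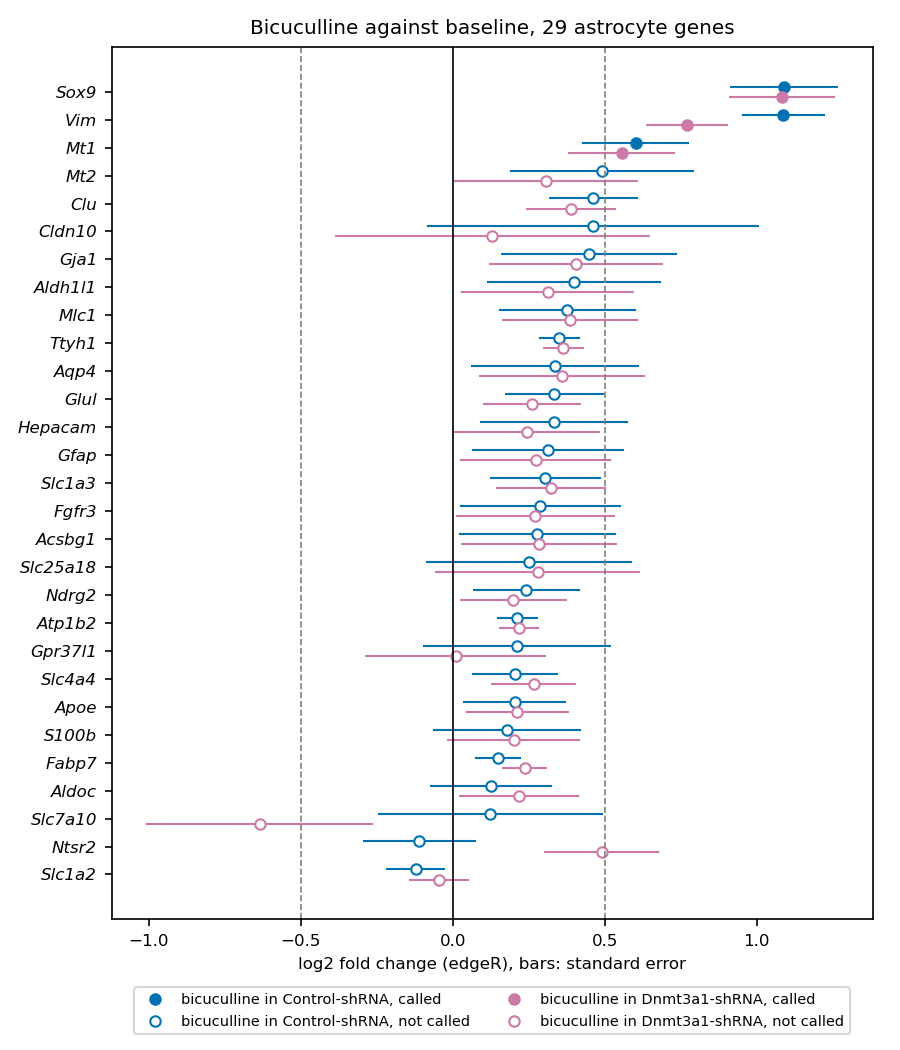
Log2 fold change (horizontal axis) of bicuculline against baseline for the 29 tested astrocyte genes (vertical axis, in order of the Control-shRNA value), with bars for the standard error (n = 4 per group). Filled points are called, open points are not, and dashed lines mark a log2 fold change of 0.5 in each direction. Sox9, Vim and Mt1 are called in both shRNAs, and 27 genes lie to the right of 0 in each.

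In Control-shRNA the libraries with the same number deviated together, and a fit that kept the number as a replicate block called the same 3 genes. Their log2 fold changes with the replicate block were 1.09 ± 0.09 for Sox9, 1.11 ± 0.11 for Vim and 0.58 ± 0.1 for Mt1. In this fit 27 of the 29 genes lay above 0, and several uncalled genes had an adjusted p under 0.05 below the fold threshold. Among them were Mt2 at 0.47 ± 0.09 (edgeR adjusted p = 2.12e-04), Aldh1l1 at 0.38 ± 0.07 (adjusted p = 2.56e-04) and Gfap at 0.30 ± 0.12 (adjusted p = 0.0379). Slc1a2 and Ntsr2 lay below 0, with adjusted p of 0.149 and 0.594.

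The second comparison set Dnmt3a1-shRNA against Control-shRNA for these genes. These cultures carried a single hairpin against Dnmt3a1, so loss of Dnmt3a1 and other effects of this hairpin cannot be told apart here. In baseline S100b, Fabp7 and Glul rose, by 1.77-fold, 1.48-fold and 1.42-fold. With bicuculline S100b, Fabp7 and Slc4a4 rose, by 1.80-fold, 1.58-fold and 1.43-fold, and no gene was called lower in either condition. The count in baseline was 3 of 29 higher, against 1.76% of all genes tested, and 0 lower, against 4.07%. With bicuculline it was 3 of 29 higher (2.0% of all genes tested) and 0 lower (3.9%). At an unadjusted p under 0.05, edgeR gave 11 of the 29 higher and 1 lower in baseline, beside 14.6% and 14.2% of all genes tested, and 9 higher and 1 lower with bicuculline, beside 14.4% and 16.7%, the lower one being Ttyh1, and voom with limma and DESeq2 also called 0 lower in both. The control libraries of each knockdown comparison also serve a bicuculline comparison, so the comparisons are not independent.

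Fabp7 (chromosome 10, 57784881 to 57788450) had the smallest standard error among the called genes. The positions here and below are those of GRCm38. It was at 51.3, 54.6, 57.4 and 50.3 CPM in Control-shRNA baseline and at 73.4, 82.7, 82.2 and 78.6 CPM in Dnmt3a1-shRNA baseline. With bicuculline it was at 52.7, 61.1, 63.4 and 59.6 CPM in Control-shRNA and at 88.4, 105, 86.04 and 93.5 CPM in Dnmt3a1-shRNA. The shRNAs did not overlap in either condition. The log2 fold change was 0.57 ± 0.07 in baseline (edgeR adjusted p = 4.79e-05) and 0.66 ± 0.07 with bicuculline (adjusted p = 1.03e-05), and in baseline it fell under the fold threshold, at 0.49, when libraries were scaled by their totals alone, and at 0.46 on the TPM scale.

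S100b (chromosome 10, 76253853 to 76261159) was low, with 16 to 56 estimated counts per library. It was at 0.724, 0.772, 0.791 and 0.713 CPM in Control-shRNA baseline and at 1.34, 1.14, 1.37 and 1.48 CPM in Dnmt3a1-shRNA baseline, with no overlap. In the bicuculline groups S100b was at 0.596, 1.07, 0.755 and 0.982 CPM and, with knockdown, 1.19, 2.07, 1.82 and 1.03 CPM, where the groups overlapped. The log2 fold changes were 0.82 ± 0.23 (edgeR adjusted p = 0.021) and 0.84 ± 0.23 (adjusted p = 0.017). The call in baseline was lost without number 1 or number 4 of Control-shRNA or number 4 of Dnmt3a1-shRNA, and that with bicuculline without number 1 or 3 of Control-shRNA or number 2 of Dnmt3a1-shRNA and in a fit of the compared groups alone. Both calls were also lost on the TPM scale, with a log2 fold change of 0.43 in each condition on log2(TPM + 1). The added 1 shrinks this value for so low a gene. The means were 1.21 TPM in Control-shRNA and 1.98 TPM in Dnmt3a1-shRNA in baseline, and 1.19 and 1.99 TPM with bicuculline.

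Slc4a4 (chromosome 5, 88886818 to 89239653), a sodium and bicarbonate cotransporter gene that serves pH control, was at 29.9, 34.4, 40.3 and 29.2 CPM in Control-shRNA baseline and at 43.9, 41.6, 50.7 and 46.7 CPM in Dnmt3a1-shRNA baseline, without overlap. The bicuculline values of Slc4a4 were 29.4, 51.98, 39.3 and 33.5 CPM in Control-shRNA and 55.3, 52.3, 61.9 and 50.5 CPM in Dnmt3a1-shRNA, where number 2 of Control-shRNA reached into the range of the knockdown. The log2 fold change was 0.51 ± 0.14 with bicuculline (edgeR adjusted p = 0.0179), and in baseline it was 0.45 ± 0.14, under the fold threshold (adjusted p = 0.0366). The call with bicuculline was lost without number 1 or 4 of Control-shRNA or number 3 of Dnmt3a1-shRNA, with libraries scaled by their totals alone, at 0.44, and on the TPM scale, at 0.37 on log2(TPM + 1).

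Glul (chromosome 1, 153899944 to 153909723), the enzyme that turns glutamate into glutamine, was at 146, 183, 203 and 134 CPM in Control-shRNA baseline and at 191, 264, 279 and 214 CPM in Dnmt3a1-shRNA baseline, with overlap. After bicuculline Glul was at 159, 267, 231 and 184 CPM in Control-shRNA and at 241, 308, 309 and 279 CPM in Dnmt3a1-shRNA. Within each number the knockdown library was the higher, in both conditions. The log2 fold change in baseline was 0.51 ± 0.16 (edgeR adjusted p = 0.0403), just over the fold threshold, and the call was lost under 15 of 26 alternatives. In the bicuculline groups the log2 fold change was 0.44 ± 0.16 and Glul was not called (edgeR adjusted p = 0.0731).

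Apoe, the highest of the genes, was at 278, 368, 391 and 251 CPM in Control-shRNA baseline and at 321, 479.5, 473 and 358 CPM in Dnmt3a1-shRNA baseline. After bicuculline Apoe was at 280.1, 452, 403 and 349 CPM in Control-shRNA and at 381, 515, 526 and 468 CPM in Dnmt3a1-shRNA. The knockdown library was the higher within each of the 4 numbers in both conditions, while the groups overlapped. The log2 fold changes were 0.34 ± 0.17 (edgeR adjusted p = 0.196) and 0.35 ± 0.17 (adjusted p = 0.17), and Apoe was not called. With the replicate block the value in baseline was 0.34 ± 0.07 (edgeR adjusted p = 0.00133), still under the fold threshold. Clu, the other secreted lipid carrier, had log2 fold changes of -0.11 ± 0.15 and -0.18 ± 0.15.

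In baseline the numbers paired the libraries of the shRNAs, and here the pairing changed the count. With the replicate block 6 of the 29 genes were called higher in baseline, against 2.42% of all genes tested. The 3 added genes were Gfap, Gja1 and Gpr37l1, the last a receptor gene. Gfap was at 64.5, 79.5, 106 and 53.1 CPM in Control-shRNA baseline and at 79.6, 124, 159.9 and 99.1 CPM in Dnmt3a1-shRNA baseline, higher in the knockdown within every number although the groups overlapped. Its log2 fold change was 0.61 ± 0.25 (edgeR adjusted p = 0.111) without the block and 0.6 ± 0.12 (adjusted p = 8.74e-04) with the replicate block.

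Gja1 was at 14.9, 23.6, 28.9 and 15.9 CPM in Control-shRNA baseline and at 20.03, 37.5, 41.2 and 30.9 CPM in Dnmt3a1-shRNA baseline. It too was higher in the knockdown within every number. Its log2 fold change went from 0.64 ± 0.29 (edgeR adjusted p = 0.155) to 0.64 ± 0.09 (adjusted p = 8.61e-05) with the replicate block. For Gpr37l1 it went from 0.61 ± 0.3 (edgeR adjusted p = 0.192) to 0.62 ± 0.17 (adjusted p = 0.0105). In all, 17 of the 29 genes were higher in the knockdown within each of the 4 numbers in baseline, against 24.5% of all genes tested.

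With bicuculline Gfap stood at 58.9, 130.3, 107 and 81.00 CPM in Control-shRNA and at 106, 149, 169.9 and 135 CPM in Dnmt3a1-shRNA, and Gja1 at 15.9, 40.4, 34.1 and 23.5 CPM in Control-shRNA and at 29.97, 52.9, 54.2 and 34.6 CPM in Dnmt3a1-shRNA. The knockdown library was again the higher within each number for both genes. Neither was called without the replicate block, with log2 fold changes of 0.57 ± 0.25 for Gfap (edgeR adjusted p = 0.128) and 0.59 ± 0.29 for Gja1 (adjusted p = 0.17). With the replicate block both were called, at 0.6 ± 0.11 (edgeR adjusted p = 8.89e-04) and 0.62 ± 0.09 (adjusted p = 1.01e-04). The numbers were not treated as paired in this comparison.

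**Figure D5:**
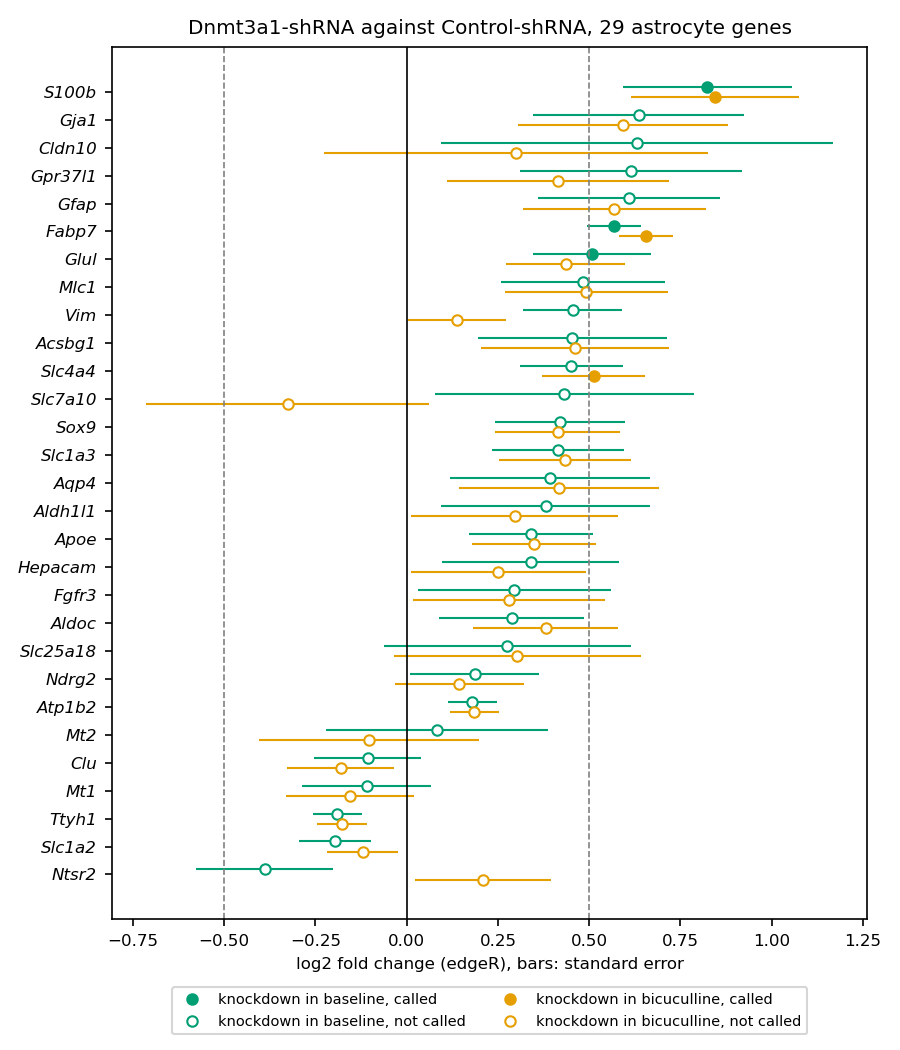
Log2 fold change (horizontal axis) of Dnmt3a1-shRNA against Control-shRNA for the 29 tested astrocyte genes (vertical axis, in order of the baseline value), with bars for the standard error (n = 4 per group) in the fit without the replicate block. Filled points are called, open points are not, and dashed lines mark a log2 fold change of 0.5 in each direction. S100b and Fabp7 are called in both conditions, 24 genes lie above 0 in baseline, and Ttyh1 and Slc1a2 lie below 0 in both.

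The uncalled genes mostly lay above 0 as well. In baseline 24 of the 29 genes had a positive log2 fold change, beside 51.2% of all genes tested, with a median of 0.39 beside 0.01. With bicuculline 23 did, beside 49.1%, with a median of 0.3 beside -0.01. With libraries scaled by their totals alone the medians of the 29 were 0.32 and 0.24, and on the log2(TPM + 1) scale 0.23 and 0.23. Sox9 had log2 fold changes of 0.42 ± 0.18 and 0.41 ± 0.17 and Atp1b2 of 0.18 ± 0.07 and 0.19 ± 0.07. Vim had 0.45 ± 0.14 in baseline (edgeR adjusted p = 0.0295, under the fold threshold) and 0.14 ± 0.14 with bicuculline.

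A few genes lay on the other side. Ttyh1 had log2 fold changes of -0.19 ± 0.07 (edgeR adjusted p = 0.0641) and -0.18 ± 0.07 (adjusted p = 0.0784) and was lower in the knockdown within every number in both conditions. Slc1a2 had values of -0.2 ± 0.1 and -0.12 ± 0.1 and was also lower within every number, as was Clu. With the replicate block in baseline, edgeR gave adjusted p = 0.0104 for Ttyh1, 0.034 for Slc1a2 and 0.197 for Clu. Their log2 fold changes stayed under the fold threshold in size. Mt1 had log2 fold changes of -0.11 ± 0.18 and -0.16 ± 0.18. The neurotensin receptor gene Ntsr2 had -0.39 ± 0.19 in baseline and 0.21 ± 0.19 with bicuculline. The estimates for the glutamate transporter genes thus stood on opposite sides of 0, with all log2 fold changes of Slc1a3 positive. Neither gene was called, with or without the replicate block, and a difference between them was not tested.

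By role, the 7 genes of water, ion and pH handling (Aqp4, Slc4a4, Atp1b2, Mlc1, Hepacam, Ttyh1 and Cldn10) had medians of 0.34 and 0.27 with bicuculline in Control-shRNA and Dnmt3a1-shRNA, and of 0.39 and 0.3 with knockdown in baseline and bicuculline, with 1 call without the replicate block, Slc4a4. The 5 genes of amino acid transport and glutamate metabolism (Slc1a3, Slc1a2, Glul, Slc7a10 and Slc25a18) had medians of 0.25, 0.26, 0.41 and 0.3 in the same order, with 1 call, Glul. The 4 genes of energy, folate and lipid metabolism (Aldh1l1, Aldoc, Acsbg1 and Fabp7) lay above 0 in all 4 comparisons, and Fabp7 gave both of their calls. The receptor genes Fgfr3, Ntsr2 and Gpr37l1 were not called in the main edgeR fit. Gpr37l1 was called only with the replicate block, for knockdown in baseline. Ntsr2 was called under 7 of 26 alternatives, for bicuculline in Dnmt3a1-shRNA.

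A last contrast asked whether the bicuculline response differed between the shRNAs. By edgeR's interaction test 0 of the 29 genes were called at an adjusted p under 0.05, and 0.0% of all genes tested were. At an unadjusted p under 0.05, edgeR gave 1 of the 29, Ntsr2, with a difference of log2 fold changes of 0.6 ± 0.26 and an adjusted p of 0.982, and 852 of all genes tested, or 4.95%. Voom with limma and DESeq2 each called 0 of these astrocyte genes as well, while over all genes voom with limma called 0 and DESeq2 called 17. For the genes called with bicuculline, the difference was -0.01 ± 0.25 for Sox9, -0.32 ± 0.19 for Vim and -0.05 ± 0.25 for Mt1.

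A separate list of 35 further astrocyte genes was compared in the same way, of which 34 were tested. With bicuculline 9 were called higher and 0 lower in Control-shRNA, where 10.8% and 11.1% of all genes tested were, and 10 higher and 1 lower in Dnmt3a1-shRNA, where 12.6% and 13.2% were. Dio2, the deiodinase that activates thyroid hormone, had log2 fold changes of 1.49 ± 0.29 and 1.5 ± 0.29. Ppp1r3c, which targets a phosphatase to glycogen, had 0.88 ± 0.21 and 0.99 ± 0.2, and Plpp3, a lipid phosphatase, 0.81 ± 0.18 and 0.78 ± 0.18. Slc15a2, a peptide transporter, had 0.86 ± 0.28 and 0.68 ± 0.27, and F3, the tissue factor of coagulation, 0.83 ± 0.15 and 0.77 ± 0.15. The sphingosine phosphate receptor gene S1pr1 was called in Control-shRNA at 0.7 ± 0.27, while in Dnmt3a1-shRNA it was at 0.45 ± 0.26. Megf10, a phagocytic receptor gene, was called in both, at 0.56 ± 0.19 and 0.66 ± 0.18. The gene lower in Dnmt3a1-shRNA was the GABA transporter gene Slc6a11, at -0.66 ± 0.09.

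With knockdown the further list gave 2 genes higher in baseline and 3 with bicuculline, where 1.76% and 2.0% of all genes tested were called higher, and 0 lower in either, where 4.07% and 3.9% were. Sparcl1, a secreted matrix protein that acts on synapses, had 0.53 ± 0.06 (edgeR adjusted p = 8.77e-06) and 0.51 ± 0.06 (adjusted p = 1.13e-05). Chrdl1, a secreted antagonist of bone morphogenetic proteins, had 0.54 ± 0.14 and 0.61 ± 0.14, and Megf10 had 0.55 ± 0.18 with bicuculline. The medians of the further list were 0.33, 0.31, 0.31 and 0.31 in the 4 comparisons.

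Of 38 genes linked to reactive astrocytes, 31 were tested. With bicuculline 7 were called higher and 1 lower in Control-shRNA, where 10.8% and 11.1% of all genes tested were. In Dnmt3a1-shRNA 8 were called higher and 1 lower, where 12.6% and 13.2% were. The higher genes were led by Ptgs2, the inducible cyclooxygenase, at 4.83 ± 0.33 and 6.35 ± 0.4, by the pentraxin gene Ptx3 at 2.94 ± 0.51 and 2.58 ± 0.49 and by Emp1 at 2.32 ± 0.18 and 2.0 ± 0.18. The protease inhibitor gene Timp1 was at 1.45 ± 0.23 and 0.79 ± 0.22, and the sphingosine kinase gene Sphk1 at 0.98 ± 0.14 and 1.25 ± 0.14, all called. Iigp1 was lower in both, at -1.02 ± 0.22 and -0.83 ± 0.21. Ptgs2 is also known as an activity-regulated gene of neurons, so the list does not mark astrocytes alone. The medians of the list were 0.35 and 0.46. With knockdown 1 was higher and 2 lower in baseline, where 1.76% and 4.07% of all genes tested were. With knockdown in bicuculline 2 were higher and 2 lower, where 2.0% and 3.9% were. Ptgs2 was lower at -2.59 ± 0.45 and -1.06 ± 0.27, and Fbln5, a matrix protein, at -1.53 ± 0.36 and -1.46 ± 0.35. Timp1 was higher in baseline at 0.75 ± 0.24, and Lcn2 and Stat3 with bicuculline at 1.55 ± 0.46 and 0.54 ± 0.07. Lcn2 was near the floor, with means of 0.242 to 0.448 CPM over the replicate numbers, and Timp1 was low, with 0.843 to 1.06 CPM. The medians were 0.20 and 0.20.

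Lists for other cell types were counted over the bicuculline comparisons in Control-shRNA and Dnmt3a1-shRNA and the knockdown comparisons in baseline and bicuculline, in that order. Over all genes tested, 10.8, 12.6, 1.76 and 2.0% were called higher and 11.1, 13.2, 4.07 and 3.9% lower. Of 17 neuronal genes, 5, 5, 1 and 0 were higher and 2, 2, 0 and 0 lower. They included the higher Slc17a6, a vesicular glutamate transporter gene, at 1.54 ± 0.16 and 1.53 ± 0.16, and the lower transcription factor gene Neurod6 at -1.29 ± 0.16 and -1.14 ± 0.16, with bicuculline. Their medians were 0.23, 0.23, 0.04 and 0.05. Of the 8 tested oligodendrocyte lineage genes, 0 were higher in any comparison, and 1, 1, 0 and 0 were lower, namely Mog. Their medians were 0.15, 0.10, 0.04 and 0.13.

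Of the 9 tested microglia genes, 0, 2, 0 and 0 were higher and 0, 0, 1 and 1 lower, the lower one being Csf1r, a growth factor receptor gene, at -0.66 ± 0.21 and -0.75 ± 0.22, and the defining genes P2ry12, Tmem119, Cx3cr1 and Aif1 were not tested, with 0 to 18 counts. Their medians were 0.02, 0.41, -0.26 and 0.07. Of the 11 tested genes of fibroblasts and vessels, 2, 1, 1 and 1 were higher and 1, 0, 1 and 0 lower. Pdgfrb, a pericyte receptor gene, was among the higher at 0.56 ± 0.19 with bicuculline in Control-shRNA and at 0.75 ± 0.19 with knockdown in baseline. Their medians of 0.3, 0.23, 0.33 and 0.21 stood beside 0.30, 0.27, 0.39 and 0.30 for the astrocyte genes.

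Of the 7 tested ependymal genes, 0, 0, 0 and 2 were higher and 1, 0, 0 and 0 lower. Their medians were -0.03, 0.03, 0.34 and 0.42. Of the 8 tested genes of neural progenitors, 1, 2, 0 and 0 were higher and 1, 1, 0 and 0 lower. Tnc, a matrix protein of progenitors and reactive astrocytes, was at 2.91 ± 0.29 and 3.59 ± 0.3 with bicuculline, and Hes5, a Notch target, at -0.9 ± 0.24 and -0.58 ± 0.22. The medians of the progenitor genes were 0.32, 0.29, 0.25 and 0.39. Of the 8 tested proliferation genes, 1, 1, 0 and 0 were higher, namely Pcna, and 2, 3, 0 and 0 lower. The genes Cdk1, Aurkb, Bub1 and Ccnb1 were not tested, with 0 to 6.14 counts, and the medians were -0.20, -0.25, -0.30 and -0.18. Wherever edgeR called 0 genes of these lists in a direction, 0 to 5 of them lay at an unadjusted p under 0.05, and the 5 were progenitor genes higher with knockdown in bicuculline. How far these other cell types carry the differences seen for the astrocyte genes was not tested.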

How the data were processed

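The 16 libraries held total RNA of hippocampal cultures. The authors trimmed the reads (Trim Galore 0.6.4 in the submitters' processing notes) and quantified them with kallisto on GRCm38.p6, and deposited, per gene and library, estimated counts without scaling. They also deposited TPM values, which are scaled to transcript length and to the library total. Estimated counts divide reads among transcripts that share sequence, so genes with shared stretches are less certain.

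Here the estimated counts were rounded and fitted over all 4 groups in R 4.3.3 with edgeR 4.0.16 (quasi-likelihood test, TMM scaling, filterByExpr), with Benjamini-Hochberg adjustment over 17222 genes. Calls needed an adjusted p under 0.05 and a log2 fold change over 0.5 in size, and for the interaction the adjusted p alone. Library totals were 28912697 to 29586355. The script was tested on simulated data. Alternatives were voom with limma 3.58.1, as in the study's methods, DESeq2 1.42.0, other scalings and filters, limma on log2(TPM + 1) and log2(TPM + 0.1), a fit of the compared groups only, no fold threshold, a replicate block and leaving out each library.

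Whether equal replicate numbers pair libraries was checked by correlating deviations from group means over genes. With every r over 0.1 taken as pairing, r was 0.142 to 0.221 for bicuculline in Control-shRNA and 0.204 to 0.355 for knockdown in baseline. It reached down to 0.0631 for bicuculline in Dnmt3a1-shRNA and 0.0667 for knockdown in bicuculline, which were not treated as paired. The labels do not say what a number marks.

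All 30 genes were named, with values in every library for called genes and for the 6 of highest mean TPM. Gfap, Gja1, Ttyh1 and Slc1a2 were shown after their values were seen. Of other lists, up to 4 called genes per direction were named, or 6 for further astrocyte genes. The genes and lists were chosen with earlier results of these data known.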

Additional observations from a re-analysis of the deposited data

Results flagged for a closer look

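Within the groups of 4 libraries, Dixon's test at the 95% level marked 4 of 123 combinations of a group with a gene or with the summed level in TPM, where chance alone marks about 1 in 20. Atp1b2 was lowest in number 3 of Control-shRNA baseline, at 281.3 CPM, while the other libraries of the group lay at 313 to 317 CPM. Gpr37l1 was highest in number 3 of Dnmt3a1-shRNA with bicuculline, at 6.91 CPM, beside 3.55 to 3.58 CPM in the others. Mt1 was highest in number 2 of Control-shRNA baseline, at 83.3 CPM, beside 70.3 to 70.8 CPM in the others. Gjb6, which was not tested, had 10 estimated counts in number 3 of Control-shRNA with bicuculline, beside 0 to 1 in the others.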

How the results depend on the processing

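The bicuculline calls of Sox9 and Vim and the Fabp7 call with knockdown in bicuculline were kept under each of 26 alternatives. The other calls were lost under some of them, and the cause was not tested. In the knockdown in baseline, the number of the 29 genes called went from 3 to 1 with library sizes only, to 0 with limma on TPM values at either pseudocount (1 and 0.1), to 5 with no fold threshold (16.3% of all genes tested in either direction), and to 6 with the replicate block (2.42% of all genes tested higher). In the knockdown in bicuculline it went from 3 to 1 on both TPM scales and to 6 with the replicate block, which added Gfap, Gja1 and Mlc1. That block fit called 527 of the 17222 genes tested higher and 811 lower. Shares over all genes were not counted for library sizes only, the TPM scales or fits with single libraries left out. Without a fold threshold the bicuculline comparisons gave 6 in Control-shRNA and 8 in Dnmt3a1-shRNA, beside 41.4% and 46.0% of all genes tested. For these genes the replicate block changed no call in the bicuculline comparisons or the interaction. When single libraries were left out, there were 3 to 4 calls for bicuculline in Control-shRNA, 2 to 4 in Dnmt3a1-shRNA, 1 to 6 for knockdown in baseline, 1 to 6 in bicuculline and 0 for the interaction. In baseline the count was 1 without number 1 or 4 of Control-shRNA or number 4 of Dnmt3a1-shRNA and 6 without number 3 of Control-shRNA, and in bicuculline it was 1 without number 1 and 6 without number 2 of Control-shRNA. With single libraries left out, the Dnmt3a log2 fold change stayed between -2.85 and -2.76 in baseline and between -2.88 and -2.84 with bicuculline. The value of Slc1a2 with bicuculline in Dnmt3a1-shRNA, -0.05, turned to 0.037 without number 3 of Dnmt3a1-shRNA baseline, with -0.12 as the lowest of such values. Mt1 in the knockdown in baseline, -0.11, turned to 0.036 without number 1 of Dnmt3a1-shRNA, with -0.27 as the lowest. Scaling by library sizes only moved the median of all genes to -0.15 and -0.16 in the bicuculline comparisons. Counts limit S100b, Cldn10 and Slc7a10 most.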
